A study of Mus musculus with 6 samples.

Results

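The regenerating islet-derived (Reg) genes of the mouse were followed in RNA-seq profiles of the duodenum. They are Reg1, Reg2, Reg3a, Reg3b, Reg3g and Reg3d, the 6 members chosen by gene symbol out of 23034 gene symbols measured, and all 6 were found in every library. They were chosen with their values in control and mutant mice known, above all their wide spread between mice. Differences between the groups are therefore given below as a description, with no test. Tissue came from mice aged 6 weeks of mixed background, namely the 2 cm of duodenum nearest the stomach, with 3 control and 3 mutant libraries. Control 1 carried Nkx2.2flox/+ with Rosa26Tomato/+, control 2 carried Rosa26Tomato/+ alone, and control 3 was WT. Mutants 1 and 3 carried Nkx2.2flox/SD with Villin-Cre/+ and Rosa26Tomato/+, and mutant 2 carried Nkx2.2flox/SD with Villin-Cre/+ and no reporter. Villin-Cre acts in the intestinal epithelium, where it is designed to remove the floxed copy of the transcription factor gene Nkx2-2 and leave the SD allele, while cells outside the epithelium keep both. The presence of Cre, any loss of 1 copy in epithelium and the SD allele cannot be told apart in any difference between the groups. Genotypes also differed within each group. Among the mutants, the reporter cannot be told apart from other differences between mutant 2 and mutants 1 and 3.

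Reg genes encode small secreted proteins with a C-type lectin fold. Reg3g and Reg3b are made by enterocytes and Paneth cells, bind bacteria and help to keep them away from the intestinal surface, and their transcription is known to rise with microbial signals through MyD88 and through IL-22 and STAT3. Reg1 and Reg2 were first described in the pancreas, where acinar cells make them during regeneration, and Reg1 is also made in the upper small intestine. Reg3a and Reg3d are less studied relatives in the mouse.

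All 6 genes lie in 1 cluster of 98.0 kb on chromosome 6 (mm9), from the start of Reg3b at 78320879 to the end of Reg3g at 78418868. In order along the chromosome they are Reg3b, Reg3d, Reg3a, Reg2, Reg1 and Reg3g, and Reg3d and Reg3g lie on the minus strand. Each has 6 exons in the transcript with the most exons of the annotation. The coding sequences ranged from 498 bases for Reg1 to 528 bases for Reg3b, Reg3a and Reg3d. Coding identity was highest for the pairs Reg1 and Reg2 (78.7%) and Reg3b and Reg3g (75.9%), and lowest for Reg3g and Reg2 (55.0%). The longest run of identical bases shared by the transcripts of any pair was 35 bases, for Reg3b and Reg3g, which is shorter than the fitted read length. No read that lies wholly within 1 transcript could thus match both genes without mismatch.

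The windows of 250 bases before the transcription start are shown for Reg3b and Reg3g, whose levels moved together from mouse to mouse, and for Reg1, which lies between them and varied little. Sequences are from RefSeq (GRCm38.p6), and each was found once in mm9 by exact match, at chr6:78320629-78320878 on the plus strand for Reg3b, chr6:78418869-78419118 on the minus strand for Reg3g and chr6:78375727-78375976 on the plus strand for Reg1. Capitals mark matches to TATAAA or to the STAT-type motif TTCNNNGAA on either strand.
Reg3b: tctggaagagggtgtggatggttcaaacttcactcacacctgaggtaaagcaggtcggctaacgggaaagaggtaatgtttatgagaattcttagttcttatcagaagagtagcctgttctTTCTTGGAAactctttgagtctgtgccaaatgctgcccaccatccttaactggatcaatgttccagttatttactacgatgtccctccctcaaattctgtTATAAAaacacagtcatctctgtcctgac
Reg3g: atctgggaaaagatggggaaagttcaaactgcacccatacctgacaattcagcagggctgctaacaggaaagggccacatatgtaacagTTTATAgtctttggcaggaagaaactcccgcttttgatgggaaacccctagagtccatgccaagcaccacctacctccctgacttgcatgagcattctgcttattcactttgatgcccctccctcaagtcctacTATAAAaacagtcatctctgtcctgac
Reg1: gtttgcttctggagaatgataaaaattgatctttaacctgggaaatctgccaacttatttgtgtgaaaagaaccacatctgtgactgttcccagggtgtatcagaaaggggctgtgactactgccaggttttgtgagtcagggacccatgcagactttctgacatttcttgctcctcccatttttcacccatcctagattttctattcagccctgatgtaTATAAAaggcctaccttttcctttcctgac

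The Reg3b and Reg3g windows were identical at 68.4% of aligned positions, while the other 14 pairs of members had 45.1% to 56.9%. Their last 20 bases before the start, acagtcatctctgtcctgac, were the same, and among 32851 windows of this length this run occurred in 2. TATAAA began 29 bases before the start in Reg3b, 27 in Reg3g and 30 in both Reg1 and Reg2, and a further match on the other strand lay in the Reg3g window. Reg3a and Reg3d had none, and 12.4% of all windows hold it. The STAT-type motif was found in the windows of Reg3b, 129 bases before the start, and of Reg3d, 238 bases before it, and 7.0% of all windows hold it. A match of letters in this window is a description and says nothing of binding.

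Depth was 19.1 to 22.9 M reads per library, as estimated from isoform coverage, and no pair of libraries held identical values. The libraries were taken as 1 mouse each. Absorptive enterocyte markers summed to 24530 to 38236 FPKM (fragments per kilobase of transcript, scaled to the mapped reads of each library) in controls and 29662 to 39807 FPKM in mutants. Nkx2-2, the targeted gene, was at 1.07, 0.647 and 0.716 FPKM across controls 1 to 3 and 0.564, 0.772 and 0.909 FPKM across mutants 1 to 3. The groups overlap, with mutants 2 and 3 above controls 2 and 3 (log2 difference -0.097, SE 0.26), so total Nkx2-2 RNA does not check the mutant label. Genes averaging 0.2 FPKM or more, 14642 in all, were compared between the groups. Limma called 0 genes (0%) at an adjusted p under 0.05, and 416 (2.84%) had an unadjusted p under 0.05. Limma-voom on recovered reads also called 0, with 383 at an unadjusted p under 0.05. The limma count was 1 without control 1, control 2, mutant 1 or mutant 3, and 3 without control 3. None of these genes is a Reg gene.

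Reg3b, a bactericidal lectin of the intestinal epithelium, was the most abundant member in all 3 controls and in mutant 2, and its level differed more between mutants (7.29-fold) than between controls (1.69-fold). It was at 40406, 33825 and 23954 FPKM across controls 1 to 3 and 8291, 30004 and 4115 FPKM across mutants 1 to 3. Mutants 1 and 3 lay below every control, and mutant 2 lay within the control range, so the groups overlap. The means were 32728 ± 8281 and 14137 ± 13899 FPKM (SD, n = 3 mice per group). Mutant 2 was also the only mutant without the Rosa26Tomato reporter. Among the controls, control 3, the only one without it, had the lowest level. The part of the reporter in these values was not tested. Reg3b ranked 1 among all genes in the 3 controls and in mutant 2, but 8 in mutant 1 and 20 in mutant 3. These values rest on 51752 to 474589 reads, so counting error is small beside the spread between mice. In bulk tissue, fewer cells of a type and less RNA per cell cannot be told apart.

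Reg3g, which binds peptidoglycan of Gram-positive bacteria, followed the same order of mice within each group. Its level was 13096, 10144 and 6448 FPKM across controls 1 to 3 and 2232, 10398 and 1276 FPKM across mutants 1 to 3. Mutant 2 again lay among the controls, between controls 1 and 2, and mutants 1 and 3 lay below all controls. The means were 9896 ± 3331 FPKM in controls and 4635 ± 5013 FPKM in mutants. Reg3g ranked between 4 and 15 in controls, 8 in mutant 2, 37 in mutant 1 and 62 in mutant 3.

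**Figure D1:**
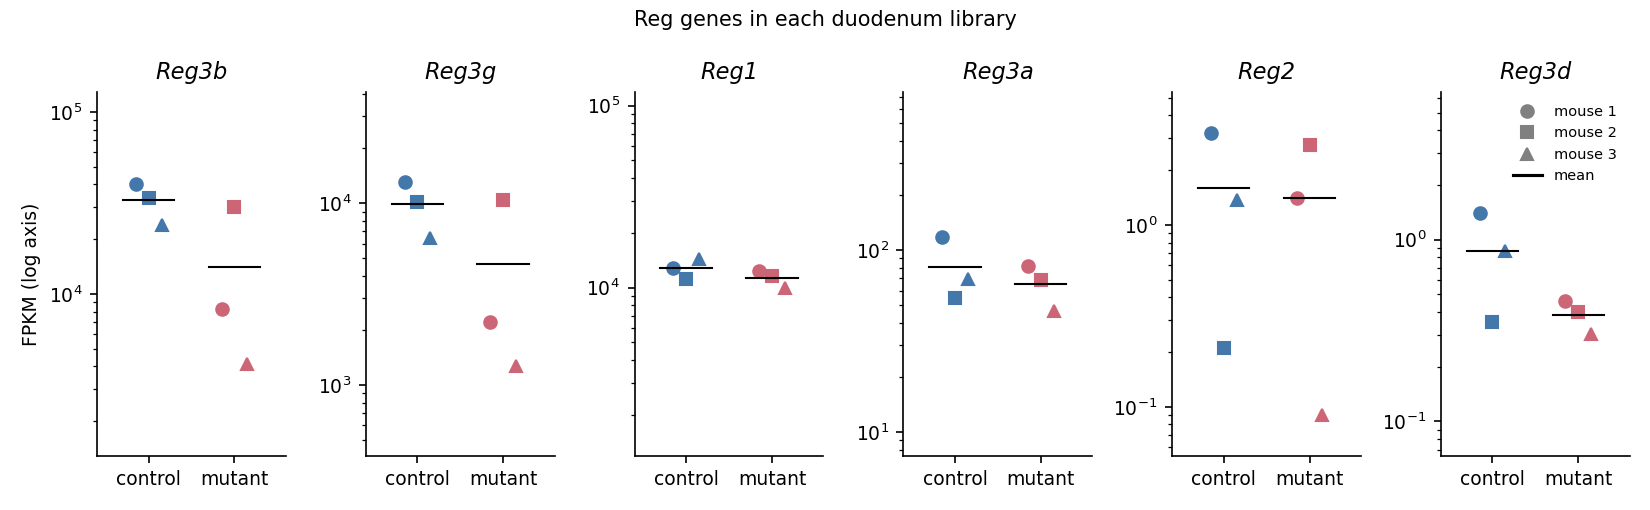
FPKM of each Reg gene (log axis, the same span of 2 decades in each panel) in the 3 control and 3 mutant libraries. Each point is 1 mouse and the line is the group mean. Equal numbers are not known to mark related mice. Reg3b and Reg3g in mutants 1 and 3 lie below all controls while mutant 2 lies among them, Reg1 hardly differs between mice, and Reg2 has low libraries in both groups.

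The difference between the group means of log2(FPKM + 0.1), mutant minus control, was -1.67 (SE 0.66) for Reg3b and -1.62 (SE 0.72) for Reg3g, fitted levels 3.17-fold and 3.07-fold lower in mutants. The size depended on single mice. Without mutant 2 the difference was -2.45 for Reg3b and -2.49 for Reg3g, and without mutant 3 it was -1.02 and -0.98. In the authors' deposited table the ratio of mean normalized counts, mutant over control, was 0.434 for Reg3b and 0.474 for Reg3g, with log2 values of -1.20 and -1.08. That ratio is of arithmetic means, in which mutant 2 weighs more than in a mean of log values.

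Each of these genes ranged widely, but their ratio changed little. Reg3b spanned 9.82-fold and Reg3g 10.3-fold over the 6 mice, whereas the level of Reg3b was 2.89 to 3.71 times that of Reg3g in every library. The ratio was 3.09, 3.33 and 3.71 in controls 1 to 3 and 3.71, 2.89 and 3.23 in mutants 1 to 3, and the groups overlap. Among the 12307 genes averaging 1 FPKM or more, the one whose profile over the 6 libraries lay closest to Reg3b was Reg3g, and the closest to Reg3g was Reg3b. Likeness was measured as the root mean square difference of log2(FPKM + 0.1) profiles after each gene's mean was removed, and it was 0.13 for this pair. The profiles of Reg3b and Reg3g themselves had a root mean square of 1.20 and 1.25 around their means.

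**Figure D2:**
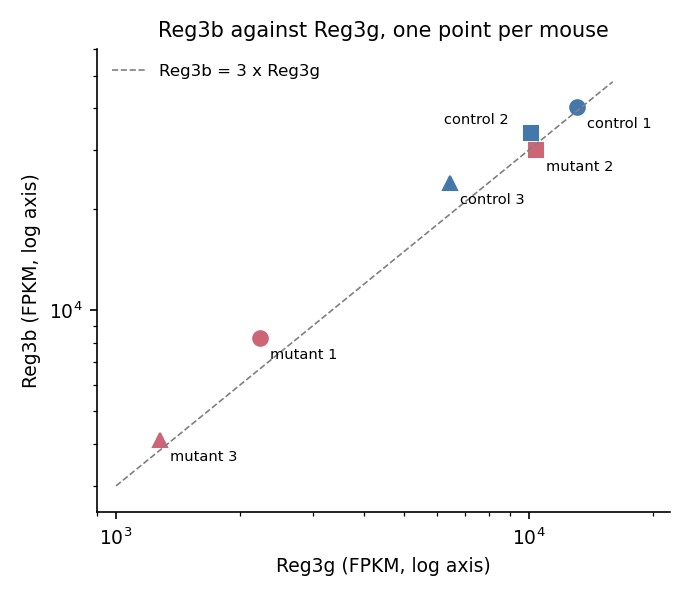
Reg3b against Reg3g in FPKM (both axes log), 1 point per mouse with controls in blue and mutants in red; the dashed line marks a Reg3b level 3 times that of Reg3g. All 6 mice lie near the line, at ratios of 2.89 to 3.71, with mutants 3 and 1 at the low end and control 1 at the high end.

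Reg1, which lies 55.1 kb from the start of Reg3b inside the same cluster, kept nearly the same level in all mice. It was at 12826, 11188 and 14312 FPKM across controls 1 to 3 and 12376, 11625 and 9885 FPKM across mutants 1 to 3. The groups overlap, and the whole range was 1.45-fold. The means were 12776 ± 1562 and 11295 ± 1278 FPKM, a log2 difference of -0.18 (SE 0.15) that stood at -0.27 without control 2, -0.091 without control 3 and -0.084 without mutant 3. Reg1, not Reg3b, was the most abundant member in mutants 1 and 3. Its level was 0.979 to 2.22 times that of Reg3g in controls and 1.12 times in mutant 2, but 5.54 times in mutant 1 and 7.75 times in mutant 3. Together the 6 genes made up 9.13%, 7.63% and 5.96% of the summed FPKM of controls 1 to 3, and 3.03%, 6.97% and 2.09% of that of mutants 1 to 3. Reg3b made up 53.5% to 61.3% of the members' sum in controls and 57.6% in mutant 2, against 36.1% in mutant 1 and 26.9% in mutant 3.

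Reg3a stood between these abundant genes and the rare ones. Its level was 118.6, 54.8 and 69.4 FPKM across controls 1 to 3 and 81.4, 68.3 and 46.3 FPKM across mutants 1 to 3. Control 1 was the highest and mutant 3 the lowest, and the other 4 mice of both groups were mixed. The log2 difference of -0.27 (SE 0.31) turned to 0.045 without control 1, and was -0.51 without control 2, -0.45 without mutant 1 and -0.041 without mutant 3. Reg3a lies 9.8 kb from the start of Reg3b and shares 74.2% of its coding sequence, but mutant 1 had the highest Reg3a level of the mutants and a Reg3b level below all controls.

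**Figure D3:**
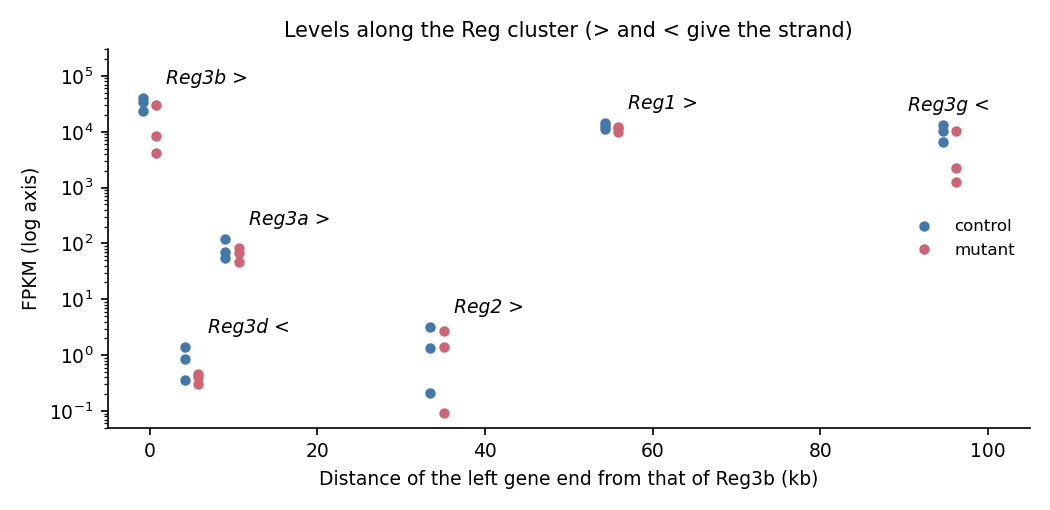
FPKM (log axis) of each library against the distance of the gene's left end from that of Reg3b, in kb, with controls in blue and mutants in red, drawn slightly apart. Reg3d and Reg2, at 5.0 and 34.3 kb, are far below their neighbours, and the wide spread of mutants at both ends of the cluster is absent at Reg1.

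Reg2 and Reg3d were near the limit of detection. Reg2, known as a pancreatic gene, was at 3.20, 0.212 and 1.37 FPKM in controls 1 to 3, on 33, 2 and 14 reads. In mutants 1 to 3 it was at 1.41, 2.74 and 0.091 FPKM, on 13, 29 and 1 reads. Each group held 1 library at or below 2 reads, control 2 and mutant 3, and the groups overlap over nearly their whole range. The log2 difference was -0.29 with an SE of 1.16, and it turned to 0.47 without control 1 and 0.85 without mutant 3. It was -0.12 without control 3, -1.23 without control 2, -0.64 without mutant 1 and -1.09 without mutant 2. It also depended on the scale, at -0.097 where 1 was added before the log and -0.46 in limma-voom on recovered reads, and the authors' deposited table gives -0.071.

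Some pancreatic acinar transcripts were high in control 1 and mutant 2, the highest libraries for Reg2, and others were not. The elastase gene Cela2a was at 7.29, 1.15e-10 and 4.25 FPKM across controls 1 to 3 and 0.0750, 6.06 and 0 FPKM across mutants 1 to 3, where 0 means listed at 0. The lipase gene Pnlip was at 3.77, 0 and 2.25 FPKM and at 0, 2.57 and 0.0342 FPKM, and the carboxypeptidase gene Cpa1 at 1.61, 0 and 1.20 FPKM and at 0, 1.47 and 0 FPKM. Control 1, control 3 and mutant 2 were the high libraries for all 3 genes, and the other libraries were at or near 0. Of the 22 acinar markers tested, 14 had these 3 libraries as their highest, a pattern counted after the values were seen, and 8 did not. The share of all genes with this pattern was not counted. Reg2 itself does not have it, since mutant 1, at 1.41 FPKM, stood just above control 3, at 1.37 FPKM. Among the 8, the zymogen granule gene Sycn was highest in mutant 3, at 5.03 FPKM, where Reg2 had 1 read. The colipase gene Clps was also highest there, at 299.9 FPKM, and Spink3, a trypsin inhibitor gene, was lowest in mutant 2, at 1685 FPKM. Clps and Spink3 were at 188 and 1837 FPKM in control 2 too, where Cpa1 and Pnlip were listed at 0. Neither gene is therefore read here as a measure of acinar RNA. None of the 5 genes closest to Reg2 by the profile measure is an acinar marker. Control 2 and mutant 3 were low in Reg2 and in Cela2a, Pnlip and Cpa1, but mutant 1 had 13 Reg2 reads with Cpa1 and Pnlip listed at 0. Of 31 acinar markers listed, 29 were measured. Their summed level was 2099 to 2790 FPKM in controls and 2070 to 2811 FPKM in mutants, most of it from Spink3, at 1685 to 2418 FPKM over all libraries. For that reason the sum does not measure acinar RNA in these libraries. Of the 22 tested, 5 had higher and 17 lower means in mutants, with a median log2 difference of -0.56 against 0.0042 over all genes, and limma passed 0 (1 at an unadjusted p under 0.05). The part of acinar RNA in the values of Reg2 was not tested. Control 2, with Cpa1 and Pnlip listed at 0, had 33825 FPKM of Reg3b, 10144 FPKM of Reg3g and 11188 FPKM of Reg1.

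Reg3d was at 1.39, 0.353 and 0.863 FPKM in controls 1 to 3, on 15, 3 and 10 reads. Mutants 1 to 3 had 0.458, 0.399 and 0.302 FPKM, on 5, 5 and 3 reads. Controls 1 and 3 lay above all mutants, while control 2 lay within the mutant range. The log2 difference was -0.85 (SE 0.43), and stood at -0.46 without control 1, -1.32 without control 2 and -0.39 with a pseudocount of 1. The gene has a transcript of 782 bases (NM_013893) and one of 644 bases (NM_001161741), and which of them carried the reads differed from library to library. Control 2 and mutant 3 had reads on the shorter form alone, mutants 1 and 2 on the longer form alone, and controls 1 and 3 on both, all on 9 or fewer reads a form.

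All 6 members had a lower mean log2 value in mutants, with a median difference of -0.57, while 48.8% of all genes tested had a lower mean and the median of all genes was 0.0042. In none of the 6 were the groups free of overlap, and over all genes tested 7.57% were, 4.14% with higher and 3.43% with lower mutants. Since the members were chosen with this contrast known, nothing is read from either count. The members differed from one another in mean level and in the spread between mice of the same group. Those mice did not share 1 genotype, so this spread is not only that between like animals. The SD within groups of log2(FPKM + 0.1) was 1.06 for Reg3b and 1.17 for Reg3g, larger than in 98.3% and 98.6% of the genes tested. It was 1.89 for Reg2 (larger than in 99.4%), 0.64 for Reg3d (94.7%) and 0.50 for Reg3a (91.2%). Reg2 and Reg3d rest on 1 to 33 and 3 to 15 reads a library, so counting error adds to their SD. The SD of Reg1 was 0.17, close to the median gene at 0.18. The wide spread was known when the members were chosen, so these shares are descriptive.

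**Figure D4:**
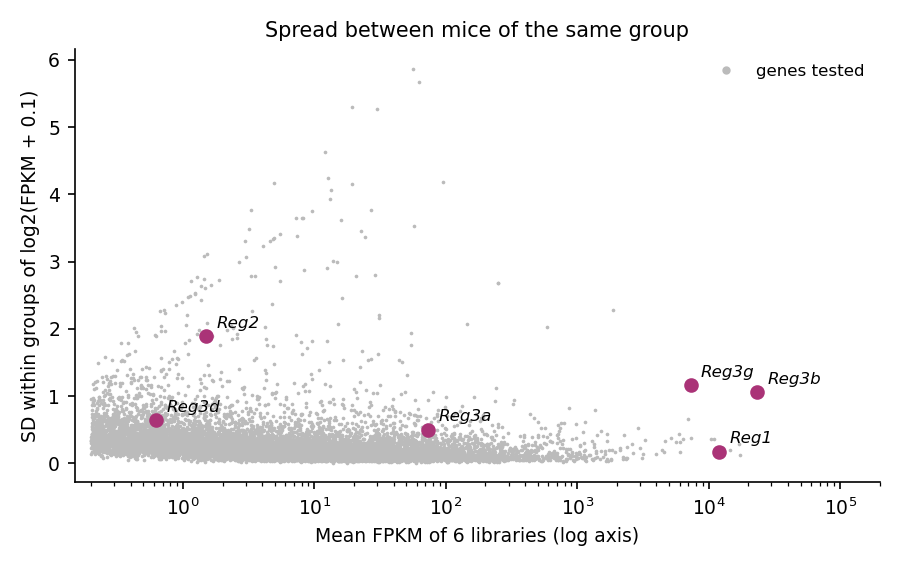
SD within groups of log2(FPKM + 0.1) against mean FPKM over the 6 libraries (log axis) for the 14642 genes tested in grey, with the Reg genes in purple. Reg3b and Reg3g stand at SDs of 1.06 and 1.17 above the grey points at their level, and Reg1, at 0.17, is near the median gene at 0.18.

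Other genes whose profile lay close to Reg3b and Reg3g were named by the same measure of likeness. After the pair itself the closest to both were Mgat4c, Bcl2l15 and Tifa, with root mean square differences of 0.32, 0.50 and 0.61 from Reg3b and of 0.27, 0.54 and 0.58 from Reg3g. The fifth was the lactoferrin gene Ltf for Reg3b (0.67) and B3galt5, a glycosyltransferase gene, for Reg3g (0.62). Mgat4c, which encodes a member of the N-acetylglucosaminyltransferase family, was at 5.26, 3.21 and 2.24 FPKM across controls 1 to 3 and 1.06, 4.99 and 0.591 FPKM across mutants 1 to 3. Tifa, an adaptor of NF-kB signalling, was at 47.8, 28.0 and 16.3 FPKM across controls and 14.6, 50.2 and 9.19 FPKM across mutants. B3galt5 was at 39.5, 15.8 and 11.7 FPKM across controls and 5.38, 62.3 and 3.78 FPKM across mutants. In Mgat4c, Tifa and B3galt5, mutants 1 and 3 were below every control and mutant 2 was not. In Ltf, mutant 1, at 2.67 FPKM, was above control 3, at 2.08 FPKM. Likeness over 6 libraries is a description and says nothing of shared control. The genes closest to Reg1 (Hpca, 8430406I07Rik, Dopey1, Itm2a and Zfp324, differences of 0.030 to 0.059) varied as little as Reg1. None of the 5 closest to Reg2 lay nearer than 0.78 (Cpn2), those of Reg3a began at 0.13 (Acpp) and those of Reg3d at 0.31 (Abhd1).

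Genes of the pathway known to act on Reg3b and Reg3g are described next. Limma called 0 of the 14642 genes tested (0%), so no list could hold a call, and its absence says nothing of a pathway. In the list of IL-22, IL-6 family and STAT3 signalling, 8 of 16 tested had higher and 8 lower means in mutants, and limma passed 0 in either direction (0 at an unadjusted p under 0.05; median log2 difference 0.0038). Stat3, the transcription factor downstream of the IL-22 receptor, was at 47.7, 40.5 and 35.5 FPKM across controls 1 to 3 and 37.0, 43.2 and 36.3 FPKM across mutants 1 to 3. Il22ra1, the epithelial IL-22 receptor chain, was at 31.4, 30.5 and 23.0 FPKM and at 28.7, 26.3 and 28.3 FPKM. Both groups overlap for these genes, whose range is small beside that of Reg3b. Il22 itself was below the filter, at 0.213, 0.320 and 0 FPKM across controls and 0, 0.286 and 0 FPKM across mutants. It was thus listed above 0 in control 1, control 2 and mutant 2, the mice with the highest Reg3b and Reg3g levels, and at 0 in the other 3. A level this low can rest on very few reads, as Reg2 did in control 2, at 0.212 FPKM on 2 reads. Whether Il22 differed between these mice therefore cannot be told, and nothing is read from this order. Socs3, a feedback inhibitor that STAT3 induces, was at 16.5, 12.1 and 8.10 FPKM across controls and 9.45, 21.0 and 10.8 FPKM across mutants. Jak1 had the smallest p of this list, with a log2 difference of -0.16 (SE 0.074), and its mutants lay below its controls.

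Of the cytokines and receptors upstream of IL-22 and IL-17, 10 of 13 tested had higher and 3 lower means, with a median log2 difference of 0.048. Among the microbial sensing genes 8 of 21 had higher and 13 lower means, with a median of -0.022. Limma passed 0 in both lists, and 0 and 1 genes had an unadjusted p under 0.05. Myd88, the adaptor of most Toll-like receptors, was at 27.9, 23.9 and 22.6 FPKM across controls and 31.4, 25.4 and 24.3 FPKM across mutants. The gene of smallest p was Il17rc in the upstream list (log2 difference 0.18, SE 0.086) and Ly96, a partner of Toll-like receptor 4, in the sensing list (0.47, SE 0.19).

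The epithelial genes known to be induced by microbes or IL-22 had no common direction either. Of 22 tested, 10 had higher and 12 lower means, limma passed 0 (1 at an unadjusted p under 0.05), and the median log2 difference was -0.084. S100a9, a calprotectin subunit, had the smallest p, with means of 0.521 ± 0.0258 FPKM for controls and 0.949 ± 0.197 FPKM for mutants (SD, 3 mice each), and the groups do not overlap. S100a8, the other calprotectin subunit, had the opposite sign (log2 difference -0.57, SE 0.90), with means of 0.610 ± 0.591 FPKM and 0.443 ± 0.393 FPKM, and its groups overlap. Across single mice, some genes of this list had a profile with a weak likeness to that of Reg3g. Of the 17 that averaged 1 FPKM or more, 7 were among the 100 genes closest to Reg3g by the measure above, and 5 among the 100 closest to Reg3b, where 0.813% of all such genes are. The 7 were Nos2, Lcn2, Duoxa2, Fut2, Dmbt1, Duox2 and Saa3, picked out after their values were seen. Their distances from Reg3g were 0.863 (Nos2) to 1.01 (Saa3), against 0.13 for Reg3b, while a gene with no variation would stand at 1.25. Duox2 and Duoxa2 were not among the 100 closest to Reg3b, where they held places 571 and 173. Of the IL-22 and STAT3 list 0 of 16 were among the 100 closest to Reg3g, of the upstream list 0 of 9, of the sensing list 1 of 17 (Tlr1) and of the Paneth cell markers 0 of 15. These counts depend on where the closest genes are cut, since Il1b of the upstream list was at place 150 (distance 1.06), Socs3 at 163 (1.06) and Bcl3 at 284 (1.10). Genes that vary little cannot come close by this measure.

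The levels of some of these genes are given mouse by mouse. Duox2, a hydrogen peroxide-forming oxidase of the epithelial surface, was at 3.83, 1.16 and 0.438 FPKM across controls 1 to 3 and 0.271, 5.22 and 0.507 FPKM across mutants 1 to 3. Its maturation factor Duoxa2 was at 6.76, 2.69 and 1.19 FPKM and at 0.682, 13.7 and 0.853 FPKM. Nos2, the inducible nitric oxide synthase, was at 1.87, 3.22 and 0.659 FPKM and at 0.679, 4.27 and 0.762 FPKM. Control 1, control 2 and mutant 2 were the highest mice for all of them, as they were for Reg3b and Reg3g, but control 3 lay close to mutants 1 and 3, while its Reg3b level of 23954 FPKM lay well above theirs. Fut2, the fucosyltransferase of the gut surface, was at 9.85, 5.64 and 3.57 FPKM and at 2.98, 10.7 and 4.77 FPKM. Lcn2, the iron-sequestering lipocalin, was at 5.89, 11.7 and 4.53 FPKM and at 4.81, 10.4 and 3.53 FPKM. Saa1, a serum amyloid gene outside the closest 100 (distance 1.21 from Reg3b, whose own root mean square is 1.20), was at 8.60, 3.60 and 0.711 FPKM and at 0.924, 10.7 and 1.54 FPKM. Mutant 2 was above every control in Duox2, Duoxa2, Nos2, Fut2 and Saa1, and below control 2 alone in Lcn2.

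**Figure D5:**
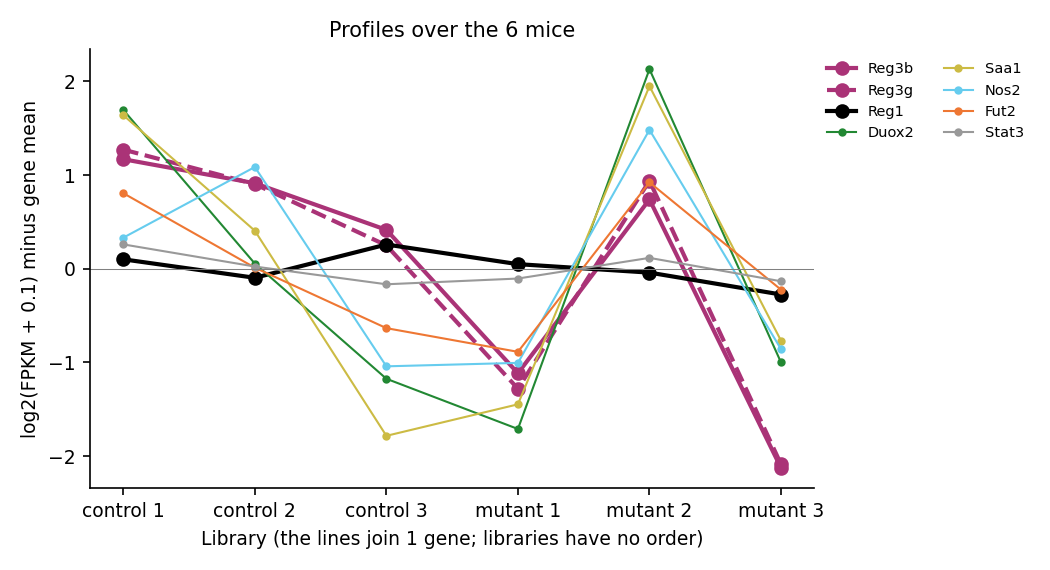
log2(FPKM + 0.1) less each gene's mean over the 6 libraries, for Reg3b, Reg3g and Reg1 (thick lines) and for Duox2, Saa1, Nos2, Fut2 and Stat3 (thin lines); lines join the values of 1 gene. Reg3b and Reg3g lie on each other and are lowest in mutants 1 and 3. Duox2, Saa1, Nos2 and Fut2, drawn as chosen examples, are also high in control 1 and mutant 2, but in control 3 Saa1 and Nos2 are at their lowest and Duox2 and Fut2 are below mutant 3, unlike Reg3b and Reg3g.

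The relative Reg4, which marks enteroendocrine and other secretory cells and lies outside the cluster on chromosome 3, had another order of mice. It was at 122.0, 101.6 and 179.1 FPKM across controls 1 to 3 and 67.5, 81.1 and 114.9 FPKM across mutants 1 to 3. The groups overlap through mutant 3, and the log2 difference was -0.61 (SE 0.26; limma adjusted p = 1.00). Mutant 3, lowest of all in Reg3b and Reg3g, had the highest Reg4 level of the mutants. Extl3, which encodes a reported receptor of Reg proteins, was at 4.69 to 6.57 FPKM in controls and 5.29 to 5.85 FPKM in mutants, with a log2 difference of -0.045 (SE 0.14) that turned to 0.054 without control 1. Of 12 other gut lectin genes tested, 7 had higher and 5 lower means (median 0.060), and limma passed 0 (1 at an unadjusted p under 0.05). Mbl2, a mannose-binding lectin, had the smallest p, at 8.70, 5.70 and 5.14 FPKM across controls and 7.68, 20.5 and 18.2 FPKM across mutants.

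Markers of the cells that make Reg proteins, or that could be present in the sample, are given as a description. With 0 of 14642 genes called (0%), the absence of a call in these lists says nothing of cell composition. Of 16 Paneth cell markers tested, 15 had higher and 1 a lower mean in mutants (median log2 difference 0.31). Their summed level was 32396 to 58157 FPKM in controls and 48946 to 61646 FPKM in mutants. Lyz1, the lysozyme of Paneth cells, was at 6035, 4257 and 7510 FPKM across controls and 7021, 6129 and 5579 FPKM across mutants. Absorptive enterocyte markers had 7 higher and 7 lower means (median -0.012), and goblet cell markers 8 higher and 2 lower (median 0.25). Limma passed 0 members in these lists, with 2, 0 and 2 genes at an unadjusted p under 0.05. Defa26 (log2 difference 0.67, SE 0.23), a defensin gene with close copies whose reads may be shared, and Tff3 (0.31, SE 0.12) had the smallest p of the Paneth and goblet cell lists. T cell and innate lymphoid cell markers had 7 higher and 6 lower means (median 0.049), and neutrophil and macrophage markers 2 higher and 8 lower (median -0.055). Of these, 0 and 1 had an unadjusted p under 0.05. Enteroendocrine markers had 4 higher and 6 lower means (median -0.075, with 5 at an unadjusted p under 0.05). In 5 of these 10 markers the groups do not overlap, against 7.57% of all genes tested. Ghrl and Sst were higher in mutants, and Chga, Tph1 and Pyy were lower. Nor do the groups overlap in 4 of 10 goblet cell markers (Tff3, Capn9, Tpsg1 and Spink4, all higher in mutants). The count was 2 of 10 for neutrophil and macrophage markers and 2 of 8 for stomach and Brunner gland markers. Since the lists were chosen with earlier results known, these counts are descriptive. Pancreatic islet markers had 2 higher and 2 lower means (median -0.016, with 1 gene at an unadjusted p under 0.05). Stomach and Brunner gland markers had 5 higher and 3 lower means (median 0.80; 2 genes), with a summed level of 184 to 5943 FPKM in controls and 493 to 5961 FPKM in mutants. Limma passed 0 members in these lists too. The Brunner gland peptide gene Tff2 was at 4468, 464 and 119 FPKM across controls 1 to 3 and 4535, 1308 and 346 FPKM across mutants 1 to 3. It was high in control 1 and mutant 1, which stand far apart in Reg3b, at 40406 and 8291 FPKM. From control 1 to control 3 Tff2 fell, and so did Reg3b. Among mutants the order differed, with Tff2 highest in mutant 1 and Reg3b highest in mutant 2. The part of Brunner gland tissue in the Reg3b values was not tested.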

How the data were processed

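Duodenal RNA was sequenced after TruSeq library preparation, per the labels' protocols. The authors named CASAVA 1.8.2, TopHat, Cufflinks, DESeq and mm9, per the submitters' processing notes, and the settings are not given in the sources. By the column names (per the file headers), the authors deposited FPKM per gene and per isoform, with isoform coverage (an unscaled signal) and length. A deposited table by the authors gives DESeq group means of normalized counts (a signal), their ratio as a fold change and its log2 value, with p-values that were not used here.

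Of 23699 gene rows, 464 repeats of a symbol were left out and its row of highest mean was kept. A further 201 symbols without a successful estimate in each library were left out, which left 23034. Reads were recovered as coverage times length less 210.3 bases, divided by a fitted read length. Among genes with 1 isoform, 80.0% to 81.7% of the results lay within 0.05 of a whole number, and 89.5% to 91.1% of those under 50 reads, so read numbers are estimates.

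Limma 3.58.1 (R 4.3.3) was fitted to log2(FPKM + 0.1) of the 14642 genes averaging 0.2 FPKM or more, mutant minus control, two-sided, with a mean-dependent prior variance and Benjamini-Hochberg adjustment at 0.05. Log2 differences on this scale understate the change of low genes. On simulated data over 14609 genes the fit recovered 45 of 100 genes changed 2-fold and 100 of 100 changed 4-fold, with 11 false calls. The simulation used 1 dispersion (0.05) for all genes and changed no gene of low read count. Its changed genes thus varied less than Reg3b and Reg3g do. It does not show what would be called among genes of such wide spread. Alternatives were other pseudocounts (0.01 and 1), no filter or one of 1 FPKM, quantile normalization, median centring, a replicate term, no variance trend, limma-voom and each mouse left out. Sequences were compared with Biopython 1.88.

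The members, the 15 gene lists and the rules were chosen with earlier results of these data known. The rule for named genes takes all members, up to 4 genes of smallest p of each list, a few fixed pathway and marker genes, and the 5 genes most like each member; fewer list genes are named here. Genes outside it (Socs3, Bcl3, Il1b, Spink3, Sycn, Tff2, Tlr1 and the microbe-induced genes other than S100a9) were chosen after their values were seen. P-values weigh the difference of group means against the spread between libraries within groups. No litter or cage is named for these libraries, and mice of a group differed in genotype.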

Additional observations from a re-analysis of the deposited data

How the results depend on the processing

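The direction of Reg1, Reg3b, Reg3g and Reg3d held in each of the 15 other limma settings run in which they were tested and in the authors' deposited means; that of Reg2 and Reg3a held in all but those without control 1 or mutant 3 for Reg2 and without control 1 for Reg3a. With single mice left out, log2 differences ran from -2.45 to -1.02 for Reg3b, -2.49 to -0.98 for Reg3g, -0.27 to -0.084 for Reg1, -0.51 to 0.045 for Reg3a, -1.23 to 0.85 for Reg2 and -1.32 to -0.46 for Reg3d. Other settings and the authors' deposited means gave -1.67 to -1.20 for Reg3b and -1.70 to -1.08 for Reg3g. Reg3d was not tested with a filter of 1 FPKM. Summing isoform rows left each member's range between mice as it was. That outcome was fixed, since a gene value is the sum of its isoform values, so it is no check of the range. The number of genes called was 0 to 3 with single mice left out, and 1 with a replicate block (850 at an unadjusted p under 0.05). In none of the 15 settings did a gene of the 15 lists pass. Whether the replicate numbers pair the mice could not be told. Deviations of same-numbered libraries correlated at 0.244, 0.031 and 0.249, against -0.322 to 0.109 for libraries of different numbers. Control 2 correlated best with mutant 3 (0.109), and mutant 2 nearly as well with control 1 (0.030) as with control 2. Extl3 ran from -0.18 to 0.054 with single mice left out, its sign turning without control 1. Depth limits Reg2 and Reg3d, with 1 to 33 and 3 to 15 reads a library, and 3 mice per group limit the rest.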
